A study of Mus musculus with 6 samples.

Results

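The Obox family of oocyte homeobox genes was examined in metaphase II (MII) oocytes of mice of advanced reproductive age, matured in vitro (IVM) or in vivo (IVO). Members were the genes named Obox1, Obox2, Obox3, Obox5, Obox6, Obox7 and Obox8 that carry an Ensembl identifier, which are 7 of the 60193 genes listed. RNA sequencing was performed on 3 IVM and 3 IVO samples, each a pool of 20 MII oocytes from 3 ICR mice aged 42 to 45 weeks. All mice were primed with PMSG, a gonadotropin from mare serum, at 5 IU. For IVM, ovaries were taken 46 h later, and oocytes at the germinal vesicle stage were freed of cumulus cells and cultured in M16 medium for 12 h. For IVO, 5 IU of human chorionic gonadotropin (hCG) followed, and ovulated oocytes were taken from the ampullae 14 h later, their cumulus cells dispersed with hyaluronidase. All donors were of this age, and no young mice are among the samples. The IVM and IVO pools therefore differed in hormone, medium and the presence of cumulus cells during maturation together, and these cannot be told apart.

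Homeobox genes encode transcription factors that bind DNA through a homeodomain. The Obox genes are a mouse family of such factors, arrayed in a cluster and used mainly in oocytes and early embryos. Some members are stored as maternal mRNA in the growing oocyte, and others are transcribed from the embryo's own genome after fertilization. Together they are known for helping RNA polymerase II to reach its first targets when the embryonic genome is activated.

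The unit of the deposited values is FPKM, that is, fragments on a gene scaled both to transcript length and to library size. Low FPKM values lay on regular steps, and these gave a depth of 16400000 to 19400000 fragments per IVM library and 17800000 to 18100000 per IVO library. From the same steps, mean fragment length came to 209 to 216 bases for IVM and 248 to 263 bases for IVO, without overlap. Summed over all listed genes, FPKM came to 1826738 to 2111776 per IVM library and 1560813 to 1643682 per IVO library. Of the 12 MII oocyte markers examined, all were tested and 5 were called lower in IVO by the test described below, including the zona pellucida genes Zp1, Zp2 and Zp3. Over all 18818 tested genes, 17.9% were called lower in IVO. Among the 15 cumulus and granulosa markers, 12 stayed under 1 FPKM in every sample, and the summed level of the list was 31.4 to 62.0 FPKM in IVM and 35.2 to 57.8 in IVO. Amh was listed at 0 throughout, while Cyp19a1, the aromatase, averaged 17.2 ± 1.36 FPKM in IVM and 19.8 ± 2.94 in IVO (SD, n = 3 each). Amhr2 was uneven, at 6.86, 7.89 and 27.89 FPKM in IVM and 3.98, 3.14 and 21.91 in IVO. It was thus highest in replicate 3 of each group. Fshr measured 6.14, 10.75 and 16.3 FPKM in IVM and 10.51, 13.84 and 10.86 in IVO. The cumulus expansion genes Tnfaip6, Has2 and Ptx3 were low, with all 3 IVO values above the 3 IVM values. Such separation was found for 9.62% of the 18818 tested genes, which do not include these 3. Tnfaip6 measured 0, 0.14 and 0.03 FPKM in IVM and 0.34, 0.49 and 0.45 in IVO. Likewise Has2 measured 0.04, 0.1 and 0.14 FPKM in IVM and 0.17, 0.36 and 0.37 in IVO. For Ptx3 the values were 0, 0.03 and 0.03 FPKM in IVM and 0.17, 0.07 and 0.1 in IVO. Ptgs2 averaged 0.0967 ± 0.0815 FPKM in IVM and 0.36 ± 0.178 in IVO, with overlap. Among the other low markers of the list, Inha, Inhba, Cyp11a1, Lhcgr, Star and Foxl2 had lower means in IVO and Hsd3b1 a higher one. All of these low markers were under the level needed for the test, and values as low as those of Ptx3 rest on few fragments. The 5 oviduct markers summed to 2.76 to 3.04 FPKM in IVM and 3.26 to 5.58 in IVO, with Pax8 listed at 0. The 6 blood and immune markers summed to 1.49 to 2.72 FPKM in IVM and 1.88 to 7.89 in IVO. The haemoglobin gene Hbb-bs was listed at 0 in every IVM sample and measured 0, 2.33 and 2.04 FPKM in IVO. Hba-a2, also a haemoglobin gene, measured 0, 0.15 and 0.83 FPKM in IVM and 0, 1.89 and 1.12 in IVO. Cd68 measured 1.73, 1.32 and 1.68 FPKM in IVM and 1.87, 2.07 and 2.29 in IVO (log2FC 0.26, adjusted p = 0.461 by limma). Of these markers of other cell types, 3 of 15, 1 of 5 and 1 of 6 reached the level needed for the test. None of the tested ones was called by limma, and 0 had an unadjusted p under 0.05. Their part in the Obox results was not tested.

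The 7 members lie in 1 cluster on mouse chromosome 7 that spans 1508243 bases of GRCm39, from chr7:14065361 to chr7:15573603, and all are annotated as protein-coding. In order along the chromosome they are Obox8 (minus strand), Obox7 and Obox2 (plus strand), Obox1 (plus), Obox3 (minus), Obox5 (plus) and Obox6 (minus). Obox8 lies at chr7:14065361-14067498, Obox7 at chr7:14393421-14399921, Obox2 at chr7:15122646-15132470, Obox3 at chr7:15359227-15373827, Obox5 at chr7:15483527-15493725 and Obox6 at chr7:15567166-15573603. The coding stretch below encodes, in the members other than Obox2, the part of the homeodomain that includes its DNA-recognition helix. In the reference Obox2 the reading frame is shifted by a missing base, and the coding sequence as annotated does not encode that helix. The stretch is shown because it tells how nearly alike the members are, which decides how surely a read can be assigned to one of them. Each stretch is read 5′ to 3′ along the transcript, with bases that differ from Obox1 in capitals.
Obox1: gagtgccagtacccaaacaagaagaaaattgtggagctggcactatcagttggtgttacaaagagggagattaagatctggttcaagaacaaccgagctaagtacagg
Obox2: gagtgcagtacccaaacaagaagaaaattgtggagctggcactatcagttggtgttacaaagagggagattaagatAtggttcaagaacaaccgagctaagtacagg
Obox3: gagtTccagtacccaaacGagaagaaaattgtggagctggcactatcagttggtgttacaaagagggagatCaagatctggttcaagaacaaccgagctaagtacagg
Obox5: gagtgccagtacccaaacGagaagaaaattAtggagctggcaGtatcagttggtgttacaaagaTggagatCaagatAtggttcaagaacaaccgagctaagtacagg
Obox7: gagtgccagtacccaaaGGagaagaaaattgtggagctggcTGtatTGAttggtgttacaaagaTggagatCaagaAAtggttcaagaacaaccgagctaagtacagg
Obox6: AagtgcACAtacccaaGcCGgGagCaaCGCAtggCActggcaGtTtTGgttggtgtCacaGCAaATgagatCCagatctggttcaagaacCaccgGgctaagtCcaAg
Obox8: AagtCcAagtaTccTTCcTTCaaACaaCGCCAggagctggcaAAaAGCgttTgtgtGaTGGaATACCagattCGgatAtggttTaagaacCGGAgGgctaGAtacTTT
The sequences are those of GENCODE transcripts of GRCm39, which represents the C57BL/6J strain. They cover coding bases 343 to 450 from the ATG in Obox1, Obox3, Obox5 and Obox7, 343 to 449 in Obox2, 496 to 603 in Obox6 and 424 to 531 in Obox8. Each stretch spans 1 intron, between exons 3 and 4 in Obox1, Obox2, Obox5 and Obox7, exons 4 and 5 in Obox3, and exons 2 and 3 in Obox6 and Obox8. In Obox1 the stretch lies at chr7:15289555-15290108 on the plus strand, and in Obox2 at chr7:15131238-15131791 on the plus strand.

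Relative to Obox1, the stretch carried 3 substitutions in Obox3, 6 in Obox5, 11 in Obox7, 31 in Obox6 and 46 in Obox8. Obox2 differed by 1 substitution and lacked 1 base, aligned at base 6 of the stretch. The reference coding sequence was 612 bases long in Obox1, 1005 in Obox3, 873 in Obox5, 1041 in Obox6, 654 in Obox7 and 651 in Obox8, and only 453 in Obox2. Whether the Obox2 alleles of ICR mice carry the same missing base was not tested. Over whole transcripts, the representative transcripts of Obox1 and Obox2 aligned over 1459 bases with 12 substitutions and 5 gap bases, an identity of 99.2%. Against Obox1, transcript identity was 94.0% for Obox5, 93.2% for Obox7, 93.0% for Obox3, 78.3% for Obox6 and 63.8% for Obox8.

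Near-identity makes the separate levels of Obox1 and Obox2 less certain. Of the 1841 distinct windows of 150 bases, the read length, in Obox1 transcripts, 700 (38.0%) also occurred in Obox2, with or without the Obox1 transcript that starts inside Obox2, and these are 42.3% of the 1656 windows of Obox2. For Obox3, 155 of 3222 windows (4.8%) occurred in the pseudogene Obox3-ps3. No window of Obox5, Obox6, Obox7 or Obox8 occurred in any of the other loci named Obox. The Obox1 gene model of chr7:15122646-15290791 contains the whole of Obox2, because 1 of its 6 transcripts starts inside Obox2. The main transcript of Obox1 lies at chr7:15280907-15290791, outside Obox2.

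Obox1 and Obox2 were the most abundant members, followed by Obox5, Obox7 and Obox3, and Obox8 and Obox6 were near the limit of detection. Obox1, a maternal member known to promote reprogramming to pluripotency when supplied with other factors, measured 7635.08, 8118.83 and 5096.64 FPKM after IVM. After IVO it measured 7170.62, 7353.17 and 8446.42 FPKM. The third IVM sample was lowest and the groups overlapped. By FPKM, Obox1 ranked between 15 and 28 of the 60193 listed genes in the IVM samples and between 12 and 17 in the IVO samples. These levels correspond to about 98700 to 159000 fragments per library, so counting error was small beside the spread between samples.

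Obox2, its near-identical neighbour, measured 5726.95, 6207.8 and 4499.53 FPKM after IVM and 7394.57, 9590.8 and 9469.13 FPKM after IVO. Every IVO value lay above every IVM value. Its rank moved from between 29 and 38 in IVM to between 10 and 12 in IVO samples. About 49600 to 69100 fragments per IVM library and 69600 to 91200 per IVO library stood behind these values.

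For Obox5, another maternally stored member, the IVM pools measured 3536.23, 3461.41 and 2228.7 FPKM and the IVO pools 3308.21, 3342.76 and 3826.15. The groups overlapped, and again the third IVM sample was lowest. Obox7, a maternal member nearer the other end of the cluster, measured 794.48, 872.51 and 547.04 FPKM in IVM and 1005.17, 731.38 and 812.07 in IVO. Here too the groups overlapped, with the first IVO sample highest.

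Obox3 is known mainly as a gene that the embryo transcribes after fertilization. It measured 5.38, 6.02 and 4.68 FPKM in IVM and 6.12, 6.23 and 5.89 in IVO, which is about 148 to 196 fragments per library. Thus Obox3 was assigned fragments in every pool, at a level lower by 6.87 ± 0.21 (SD, n = 6 samples) than Obox7 on the log2(FPKM + 1) scale. The representative transcript of the far more abundant Obox1 is 93.0% identical to that of Obox3 where they align. The part of misassigned reads in the level of Obox3 was not tested.

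Obox8 measured 0.7, 0.05 and 0 FPKM in IVM and 0.42, 0.06 and 0.12 in IVO. Obox6, a member studied for its effect on reprogramming, measured 0.05, 0.36 and 0 FPKM in IVM and 0.1, 0.05 and 0 in IVO. A count of 3 fragments is worth 0.161 to 0.192 FPKM for Obox8 and 0.136 to 0.162 FPKM for Obox6. Only the first IVM and first IVO samples exceeded this for Obox8, and only the second IVM sample for Obox6. Neither gene reached the mean of 1 FPKM needed for the test, and a difference between the groups was not detectable at this depth.

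**Figure D1:**
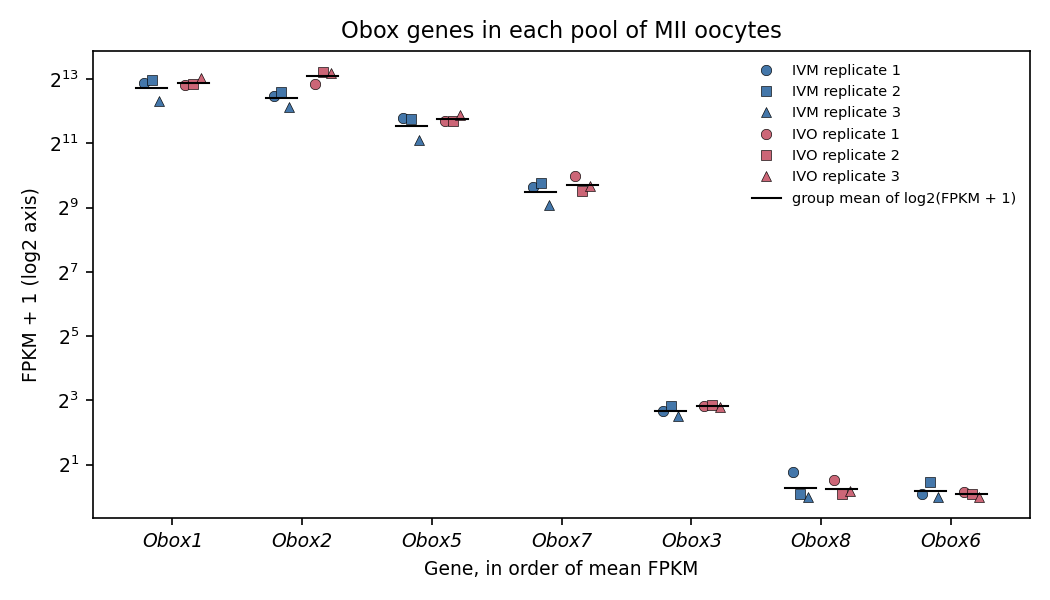
FPKM + 1 of the 7 Obox genes on a log2 axis, with 1 point per sample (blue for IVM, red for IVO, symbol for the replicate) and a line at the group mean of log2(FPKM + 1). Obox1, Obox2, Obox5 and Obox7 stand far above Obox3, Obox8 and Obox6, and Obox2 alone among the 7 has all 3 IVO points above all 3 IVM points.

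In the order of levels, FPKM being per length, neighbours were compared within each sample on the log2(FPKM + 1) scale. Obox1 minus Obox2 was 0.41, 0.39 and 0.18 in IVM and -0.04, -0.38 and -0.16 in IVO, so Obox1 was the higher of the pair in the 3 IVM samples and the lower in the 3 IVO samples. Obox2 exceeded Obox5 by 1.09 ± 0.30 (SD, n = 6) and Obox5 exceeded Obox7 by 2.05 ± 0.19, each in 6 of 6 samples. Obox3 lay above Obox8 by 2.48 ± 0.32 in 6 of 6 samples, whereas Obox8 and Obox6 differed by 0.14 ± 0.36. The listed length of Obox2, 782 bases, equals none of its 4 GENCODE transcripts, which run from 1234 to 1518 bases, and a short listed length raises FPKM. That of Obox1, 1217 bases, also equals none of its 6 transcripts, but lies within their range of 749 to 1571 bases. In approximate fragments, where the division by length is undone, Obox2 had fewer than Obox1 in every sample, with ratios of 0.426 to 0.718.

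Expression in IVO and IVM pools was then compared gene by gene. The fit by limma on log2(FPKM + 1) took in 18818 genes, those averaging 1 FPKM or more. Differentially expressed genes (DEGs) had to reach |log2FC| ≥ 1 with an adjusted p below 0.05 (limma, Benjamini-Hochberg). In such pools, RNA from fewer oocytes of one kind and less RNA per oocyte cannot be told apart. Here log2FC stands for IVO minus IVM, and genes with low FPKM have their change understated. By this rule limma called 0 of the 5 tested members. At any fold and in either direction, 1 of the 5 had an adjusted p under 0.05, as did 4401 of all 18818. That gene, Obox2, was also the only member of the 5 with an unadjusted p under 0.05. Over all tested genes, 18.5% were called, 3366 of the 3480 lower in IVO, and 0.606% were called higher in IVO. The median log2FC was -0.30 over all tested genes and 0.21 over the 5 tested members, 5 of which had a log2FC above 0, as did 6404 of all 18818.

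Obox2 was the member with the largest difference, with 5478 ± 881 FPKM in IVM and 8818 ± 1234 in IVO (SD, n = 3 each), a ratio of 1.61. The log2FC was 0.69 (SE 0.17, 95% interval 0.29 to 1.09, adjusted p = 0.0281), which passed the p threshold and missed the fold threshold. It was larger than the log2FC of 96.3% of tested genes. An adjusted p under 0.05 with a positive log2FC, at any fold, was found for 1.87% of tested genes, and 3 IVO values all above the 3 IVM values for 9.62%. In either direction, an adjusted p under 0.05 was found for 4401 of all 18818. Obox2 was 1 of 5 tested members by each of these measures. The adjusted p rose above 0.05 in 4 of the 6 fits that left out 1 sample, at 0.0817 without IVM replicate 1, 0.0753 without IVM replicate 3, 0.0969 without IVO replicate 2 and 0.0826 without IVO replicate 3. With the libraries set to the same summed FPKM the log2FC was 1.03 (adjusted p = 0.00379), and with median-ratio scaling 1.02 (adjusted p = 0.0246), so that Obox2 was a DEG under these scalings, while with quantile normalization it was 0.73 (adjusted p = 0.00725) and missed the fold threshold.

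The other 4 tested members did not pass either threshold. Obox1 averaged 6950 ± 1623 FPKM in IVM and 7657 ± 690 in IVO, with a log2FC of 0.17 (SE 0.20, 95% interval -0.29 to 0.62, adjusted p = 0.587). Obox5 averaged 3075 ± 734 and 3492 ± 290 FPKM, with a log2FC of 0.21 (95% interval -0.26 to 0.69, adjusted p = 0.498). Obox7 averaged 738 ± 170 and 850 ± 141 FPKM, with a log2FC of 0.22 (95% interval -0.31 to 0.74, adjusted p = 0.527). Obox3 averaged 5.36 ± 0.67 and 6.08 ± 0.174 FPKM, with a log2FC of 0.16 (95% interval -0.30 to 0.62, adjusted p = 0.603). All 4 intervals include 0 and exclude a change of 1 in either direction. Without IVM replicate 3, the lowest IVM sample for each of these genes, the log2FC was -0.04 for Obox1 and -0.01 for Obox5. Relative to the median of all tested genes, the log2FC was higher by 0.46 for Obox1 and Obox3 and by 0.51 for Obox5 and Obox7. With quantile normalization the excess was -0.01 for Obox1, 0.25 for Obox5, 0.48 for Obox3 and 0.51 for Obox7.

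**Figure D2:**
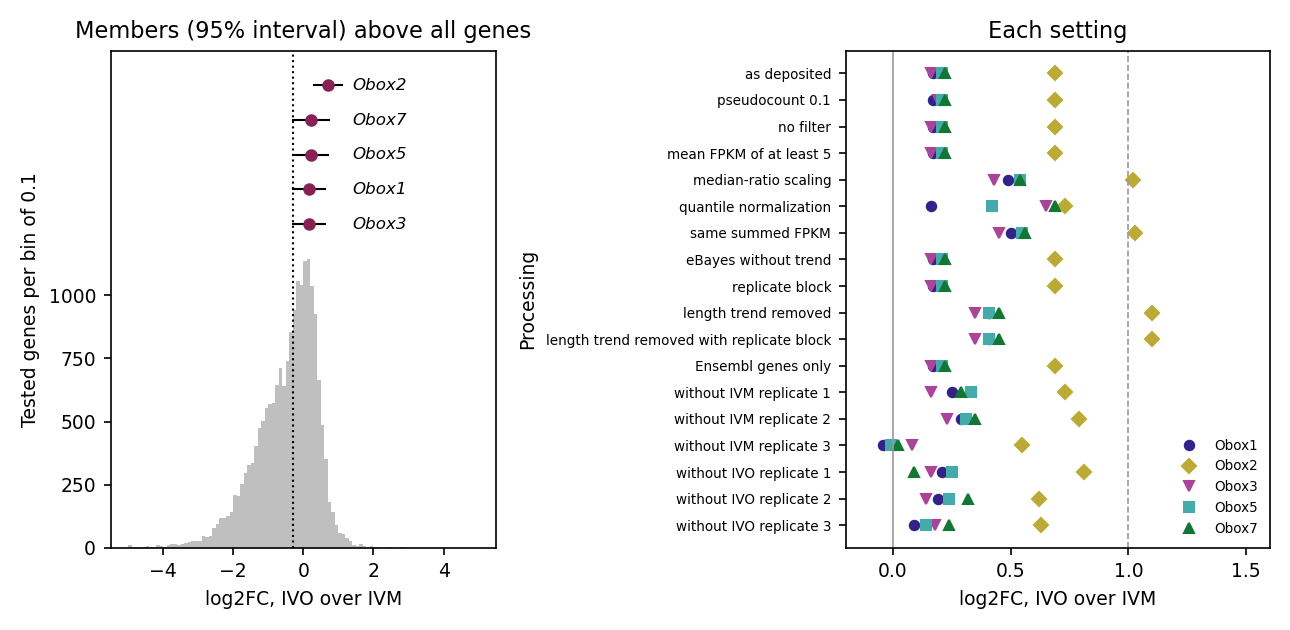
Left, log2FC of the 5 tested Obox genes with 95% intervals above a histogram of the log2FC of all 18818 tested genes in bins of 0.1, with values beyond the axis placed in the outermost bins and a dotted line at the median of -0.30. Right, the log2FC of each gene as deposited and under 17 other settings, with lines at 0 and at the fold threshold of 1, which Obox2 passes under 2 scalings and where the length trend is removed.

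The share of the measured RNA taken by the family was compared next. A sum of FPKM still depends on how shared reads were split, since the listed length is 782 bases for Obox2 and 1217 for Obox1. FPKM was taken to be divided by the listed length less the mean fragment length. A sum of fragments does not depend on the split, but the fragments here were computed back from these listed lengths. The 7 members summed to 17699, 18667 and 12377 FPKM for IVM and 18885, 21024 and 22560 FPKM for IVO. The IVO sums lay above the IVM sums, with a ratio of means of 1.28. Without IVM replicate 3 the ratio was 1.15. As a share of the summed FPKM of the library, the family took 0.844%, 0.884% and 0.678% in IVM and 1.21%, 1.35% and 1.37% in IVO. As a share of the inferred fragments, it took 1.75%, 1.83% and 1.19% in IVM and 1.69%, 1.83% and 2.02% in IVO, and on this scale the groups overlapped. The ratio of means was 1.16 in fragments. The lower summed FPKM of the IVO libraries enters the first share and not the second.

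Most of the difference in the summed FPKM lay in Obox2. Obox1, Obox5 and Obox7 together summed to 10764 ± 2516 FPKM in IVM and 11999 ± 941 in IVO (SD, n = 3 each), and these groups overlapped. Obox2 made up 32.4%, 33.3% and 36.4% of the family's FPKM in IVM and 39.2%, 45.6% and 42.0% in IVO. Shares of a common total are tied, so a larger share of Obox2 goes with smaller shares of the rest. Obox1 made up 43.1%, 43.5% and 41.2% in IVM and 38.0%, 35.0% and 37.4% in IVO. Obox5 took between 18.0% and 20% in IVM and between 15.9% and 17.5% in IVO. In FPKM, neither Obox1 nor Obox5 had a lower mean in IVO. The share of Obox7 was 4.42% to 4.67% after IVM and 3.48% to 5.32% after IVO, with overlap.

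Ratios between members within a sample do not depend on the scaling of libraries, and they were added after the values had been seen. The ratio of Obox2 to Obox1 was 0.75, 0.765 and 0.883 in IVM and 1.03, 1.3 and 1.12 in IVO. All IVO ratios were above all IVM ratios, and an exact two-sided permutation test gave p = 0.1, the smallest that 3 against 3 samples allow. In approximate fragments the ratio was 0.455 ± 0.0418 in IVM and 0.633 ± 0.0792 in IVO (SD, n = 3 each), also without overlap. Leaving out 1 sample at a time kept the IVO ratio at 1.35 to 1.52 times the IVM ratio. Against Obox5, with which it shares no window of read length, Obox2 stood at 1.81 ± 0.20 times in IVM and 2.53 ± 0.32 times in IVO, again without overlap and with an exact permutation p of 0.1. By contrast, the ratio of Obox5 to Obox1 stayed between 0.426 and 0.463 in all 6 samples, although both genes varied between samples (exact permutation p = 0.4). Obox7 to Obox1 gave 0.106 ± 0.00193 in IVM and 0.112 ± 0.0245 in IVO (exact permutation p = 1). The shorter listed length of Obox2 and the longer fragments of the IVO libraries move with the ratio of Obox2 to the other members, and their part in it was not tested beyond the ratio in fragments.

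**Figure D3:**
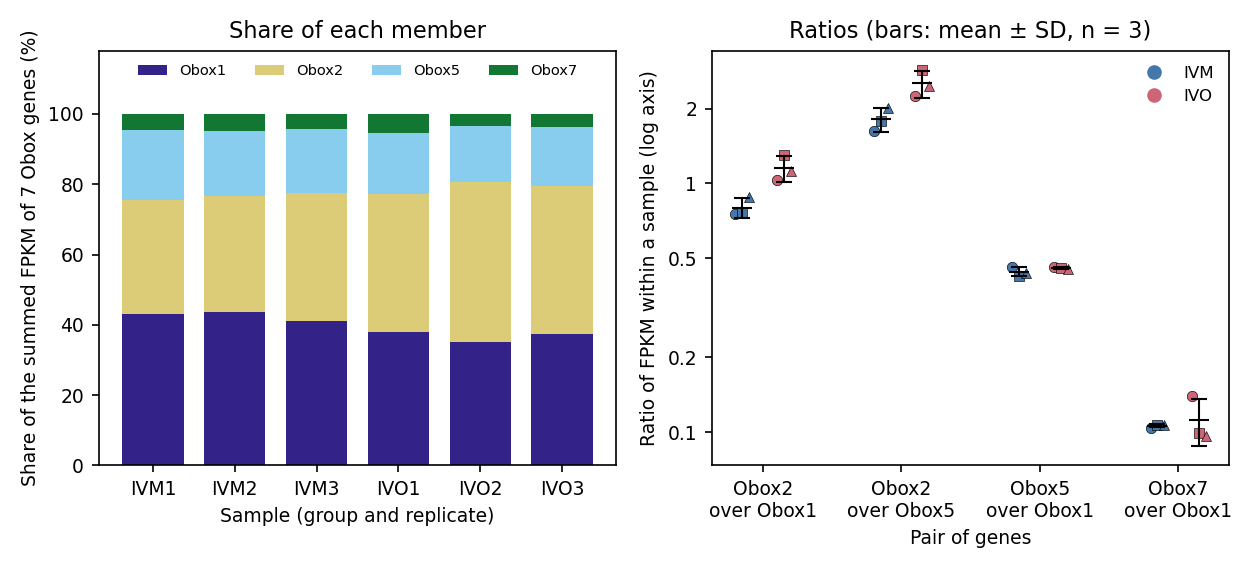
Left, the share of Obox1, Obox2, Obox5 and Obox7 in the summed FPKM of the 7 members in each sample, in percent. Right, ratios of FPKM within a sample on a log axis, with points for samples and bars for the mean ± SD of 3 samples. Obox2 has higher ratios in all IVO than in all IVM samples, against Obox1 and against Obox5, whereas Obox5 over Obox1 stays between 0.426 and 0.463.

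Another 48 loci with Ensembl identifiers are named for the family, comprising 39 named as pseudogenes of Obox4, 8 of Obox3 and 1 of Obox6. Of the 48, 47 are annotated as pseudogenes and 1, Obox4-ps35, as a lncRNA, and 46 lie on chromosome 7. They contributed little, with 26 listed at 0 in all 6 samples and a sum over the 48 of 3.36 to 5.68 FPKM per sample. The highest FPKM of any locus named Obox4-ps in any sample was 0.43. Obox4-ps35 was listed at 0 in all 6 samples. No locus was named Obox4 without the suffix, and which of these loci, if any, is a functional Obox4 gene, known as an early embryonic member, was not examined. Obox3-ps8 measured 2.6, 1.78 and 2.41 FPKM in IVM and 2.28, 2.27 and 2.7 in IVO. The groups overlapped, and it was the 1 tested locus of the 48 (log2FC 0.07, adjusted p = 0.853 by limma). With 0 of 1 called and 0 of 1 at an unadjusted p under 0.05, no difference was found. Obox3-ps6 measured 1.04, 0.81 and 0.7 FPKM in IVM and 0.38, 0.12 and 0 in IVO, and Obox3-ps5 0, 0.11 and 1.28 in IVM and 0.18, 0.98 and 0.74 in IVO. Both had means under 1 FPKM and were not tested.

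Around the members, 67 other Ensembl genes start within the cluster or within 500000 bases of it, and 11 of them were tested. Inside the cluster itself, 31 such genes start and 2 were tested. Of the 11, 3 were called, all lower in IVO, beside 17.9% of all tested genes, with a median log2FC of -0.78. Nlrp5-ps, a pseudogene of the maternal-effect gene Nlrp5, fell from 14.8 ± 2.55 to 0.387 ± 0.569 FPKM (log2FC -3.57, adjusted p = 0.00125). Sult2a7, a sulfotransferase gene, fell from 4.65 ± 0.924 to 0.527 ± 0.11 FPKM (log2FC -1.88, adjusted p = 0.00322). Napa, which encodes a factor for membrane fusion, fell from 6.79 ± 2.75 to 1.13 ± 0.114 FPKM (log2FC -1.81, adjusted p = 0.00843). Nlrp5-ps and Sult2a7 start between Obox8 and Obox7, so genes within 1 cluster differed in their values.

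**Figure D4:**
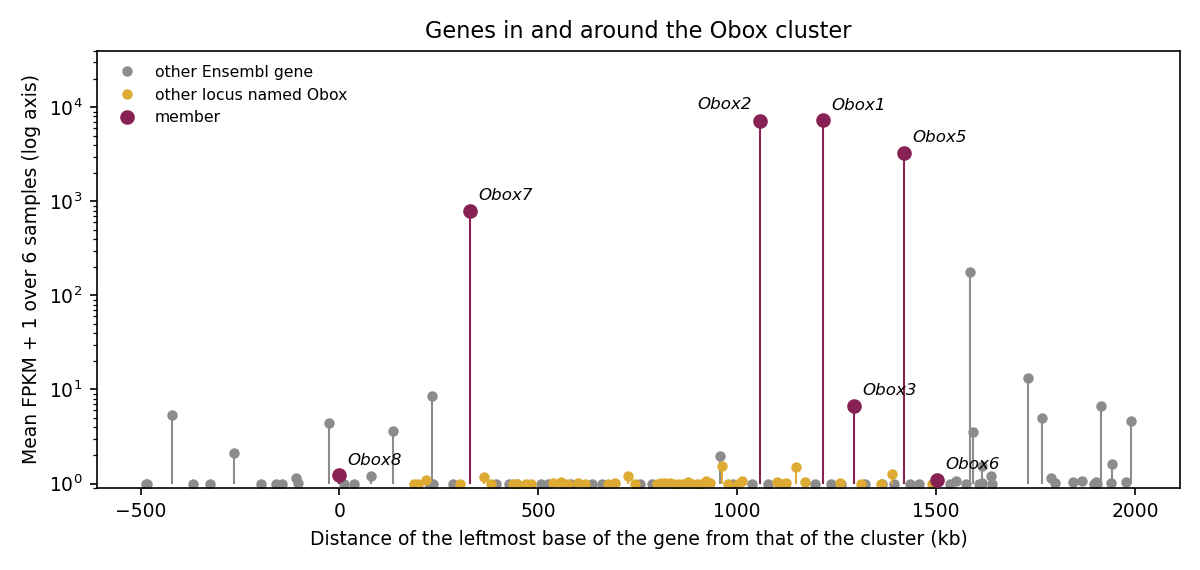
Mean FPKM + 1 over 6 samples, on a log axis, of each Ensembl gene in and around the cluster, by the distance of its leftmost base from that of the cluster in kb (main transcripts for the members). Obox7, Obox2, Obox1 and Obox5 average 794 to 7303 FPKM, while the loci named Obox that are no members lie near the floor of the plot.

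To set the family beside related genes, 3 lists were read from the same fit. Of 36 other homeobox genes of the germ line and early embryo, 32 were listed and 18 tested, and limma called 0, beside 18.5% of all tested genes. Of the 18, 4 had an unadjusted p under 0.05 and 1 an adjusted p under 0.05, the latter beside 4401 of all 18818. The median log2FC of the 18 was -0.11, with 7 above 0. Meis2, a cofactor of Hox proteins and the most abundant of the list, measured 744 ± 86.5 FPKM in IVM and 1303 ± 88.9 in IVO, with a log2FC of 0.81 (adjusted p = 0.00988) that missed the fold threshold. Meis2 lay below Obox1, Obox2 and Obox5 in mean FPKM. The count of called genes in this list was 3, all higher in IVO, under median-ratio scaling, quantile normalization and scaling to the same summed FPKM. Under these settings 388, 1097 and 394 of all 18818 tested genes were called higher in IVO, against 114 as deposited.

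Of 34 maternal regulators of zygotic genome activation, 29 were tested, and 3 were called, all lower in IVO, beside 17.9% of all tested genes. The median log2FC of the 29 was -0.17, with 13 above 0. Esrrb, an orphan nuclear receptor, fell from 56.9 ± 14.2 to 3.56 ± 0.885 FPKM (log2FC -3.66, adjusted p = 6.53e-04). Nr5a2, a nuclear receptor of the early embryo, fell from 34.0 ± 5.45 to 15.9 ± 2.21 FPKM (log2FC -1.04, adjusted p = 0.0139). The most abundant genes of the list were Dppa3, a maternal protector of DNA methylation, at 6901 ± 1841 and 6016 ± 338 FPKM (log2FC -0.17, adjusted p = 0.584), and Btg4, an adaptor for maternal mRNA decay, at 5996 ± 1296 and 7026 ± 392 FPKM (log2FC 0.25, adjusted p = 0.352). Neither was called.

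Of a list of 30 genes known for transcription at the 2-cell stage, 26 were listed, 17 of them under 1 FPKM in every sample, and 7 were tested. The 1 called gene of the 7, beside 17.9% of all tested genes called lower, was Arg2, the mitochondrial arginase, which fell from 34.3 ± 17.5 to 8.17 ± 1.01 FPKM (log2FC -1.84, adjusted p = 0.0100). The median log2FC of the 7 was -0.70, with 1 above 0. The most abundant were Sp110, a nuclear body protein gene, at 219 ± 47.1 and 261 ± 23.1 FPKM (log2FC 0.27, adjusted p = 0.380), and Tcstv1, known from the 2-cell stage, at 231 ± 76.3 and 145 ± 32.2 FPKM (log2FC -0.64, adjusted p = 0.151). Sp110, Tcstv1 and Arg2 were thus already present in these unfertilized oocytes, so the name of the list does not describe their levels here.

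Among the MII oocyte markers, the most abundant were Oosp1, a secreted oocyte protein gene, at 11669 ± 2086 and 13144 ± 1752 FPKM (log2FC 0.18, adjusted p = 0.483), and Dppa3 as above. The 5 called markers comprised Zp2 (log2FC -3.69, adjusted p = 0.00119), Zp3 (-3.13, adjusted p = 0.00202), Zp1 (-2.43, adjusted p = 0.00212), Nlrp5 (-1.99, adjusted p = 0.00351) and Padi6 (-1.38, adjusted p = 0.00849). The first 3 encode the egg coat, and Nlrp5 and Padi6 are maternal-effect genes of the subcortical complex. The median log2FC of the 12 markers was -0.92. No test of the difference between the Obox genes and any of these lists was made.

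**Figure D5:**
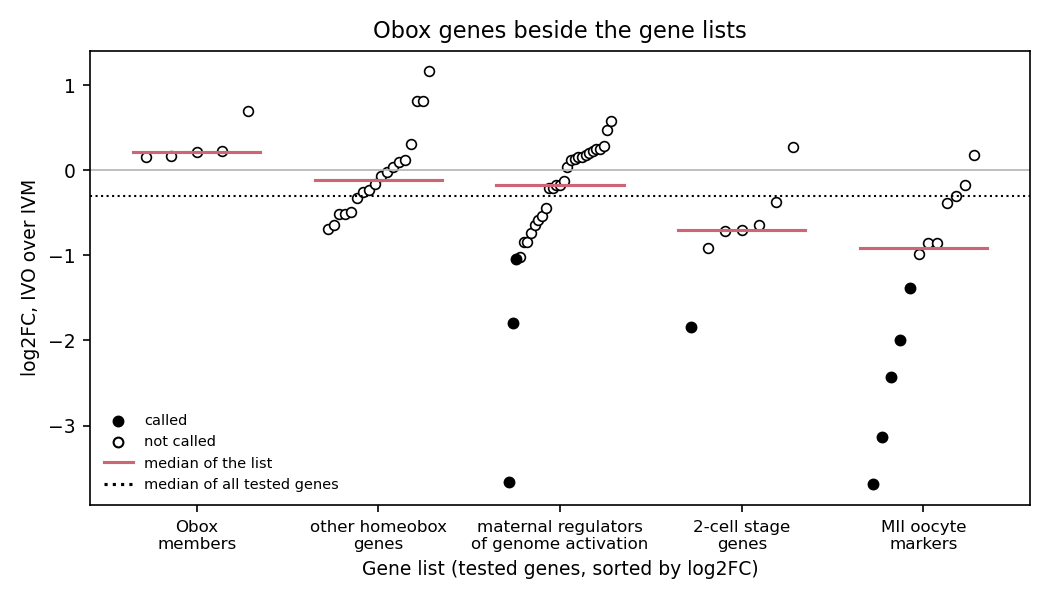
log2FC of each tested gene, IVO over IVM, for the 5 tested Obox genes and for 4 lists, with filled points for called genes, a red line at the median of each list and a dotted line at the median of all tested genes (-0.30). The Obox points run from 0.16 to 0.69, and the called genes of the other lists all lie below -1.

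In level and course over the 6 samples, the genes most like Obox1 were sought by the root mean square difference of log2(FPKM + 1), members left out. They were Btg4 (0.183), Fbxw14 (0.20), an F-box gene, and Dppa3 (0.296). For comparison, the difference between Obox1 and Obox2 was 0.297. Btg4 measured 6089.09, 7242.23 and 4656.21 FPKM in IVM and 6800.6, 6798.61 and 7478.8 in IVO. As in Obox1, the third IVM sample was lowest and the third IVO sample highest.

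The libraries were primed on the poly(A) tail, so a lower level cannot be told apart from a shorter tail in these data. Pools of 20 oocytes give 1 value per pool, and differences between single oocytes or mice were not measured.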

How the data were processed

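Full-length cDNA of 3 IVM and 3 IVO pools had been amplified by the authors with the SMART-Seq v4 kit and made into libraries with Nextera XT. Paired-end reads of 150 bases were filtered with SeqPrep and Sickle and aligned to GRCm39 with HISAT2, and gene abundance was estimated with RSEM (versions 2.1.0 and 1.3.3 in the submitters' processing notes). The authors deposited 1 FPKM value per gene and sample, group means that were not used here, and a length per gene. The authors tested their counts with DESeq2 (1.24.0), but the values here are FPKM, so no count test was run. The annotation release behind the rows is not given in the sources used here.

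Groups and replicate numbers came from the sample titles. Depth was inferred from 9506 genes with 1 annotated transcript, for which low FPKM values are multiples of what 1 fragment is worth, and 76.6% to 80.4% of these values came out whole (tolerance 0.15 fragments). Too few came out whole to rebuild counts, so fragments are approximate. Amplified fragments are not independent molecules, so floors speak of counting error alone.

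Fits used limma 3.58.1 in R 4.3.3 (lmFit, eBayes with trend) on log2(FPKM + 1), with group alone, for genes averaging 1 FPKM or more. P-values were two-sided and adjusted over all 18818 tested genes. With 3 against 3 samples, 0.1 is the smallest p of an exact permutation test. The fit and the depth estimate were tested on simulated data. The p-values measure the spread between pools, which the study calls biological replicates.

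The members and lists were chosen with earlier results of these data known. Named are the 7 members, other loci named Obox with at least 1 FPKM in any sample, from each list the 2 most abundant genes and up to 4 called genes, up to 5 called neighbours, and the 3 genes nearest to Obox1 in level. Padi6, Obox4-ps35 and the single markers of other cell types named in the text were chosen after their values were seen. As alternatives, the pseudocount was set to 0.1, the filter was dropped or raised to a mean of 5 FPKM, libraries were rescaled in 3 ways, eBayes was run with no trend, a replicate block was added, the trend with gene length was removed by lowess (span 0.3), loci without Ensembl identifiers were dropped and each sample was left out. Of the genes this rule names, 2 are not reported here. Ratios between members and fragment shares were added after seeing the data. Likeness between members was planned on proteins and was computed on GENCODE M39 transcripts with Biopython 1.88. Tables were made with Python 3.11.15, pandas 2.3.3, numpy 2.4.6 and scipy 1.17.1, and plots with matplotlib 3.10.9.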

Additional observations from a re-analysis of the deposited data

How the results depend on the processing

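The 5 tested members kept a positive log2FC in every setting tried, except that Obox1 (-0.04) and Obox5 (-0.01) turned negative without IVM replicate 3. Leaving out 1 sample gave ranges of -0.04 to 0.29 for Obox1, 0.55 to 0.81 for Obox2, 0.08 to 0.23 for Obox3, -0.01 to 0.33 for Obox5 and 0.02 to 0.35 for Obox7. Obox2 was called, making 1 member called in place of 0, under median-ratio scaling (1.02), the same summed FPKM (1.03) and the removal of the length trend (1.10). Under these settings 388, 394 and 557 of 18818 genes were called higher in IVO, against 114 as deposited. The call with the length trend removed was lost when the replicate block was added (log2FC 1.10, adjusted p = 0.0529). Over its 17 alternatives the adjusted p of Obox2 ran from 0.00379 to 0.13, the highest with no filter. At an adjusted p under 0.05 without the fold threshold, Obox1 (0.0422) and Obox5 (0.0407) passed with the same summed FPKM and Obox7 (0.043) with quantile normalization. The median log2FC of all tested genes was -0.30 as deposited, -0.04 with median-ratio scaling, -0.03 with the same summed FPKM, 0.17 with quantile normalization and 0.05 with the length trend removed. Relative to that median, Obox2 stood 0.56 to 1.06 higher under these settings, Obox1 -0.01 to 0.53, Obox3 0.30 to 0.48, Obox5 0.25 to 0.58 and Obox7 0.40 to 0.59. The share of calls that were lower in IVO was 96.7% as deposited, 84.4% with median-ratio scaling or the same sum, 59.0% with quantile normalization and 73.1% with the length trend removed.

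The count of called genes, 3480, was 2068 with the length trend removed, 929 when the replicate block was added to that, and 2056 over Ensembl genes only, where fewer genes were tested, and 2363 to 3304 with 1 sample left out. The family's FPKM ratio of 1.28 became 1.6 with median-ratio scaling and 1.63 with the same sum, and 1.15 to 1.38 with 1 sample left out. Among the other homeobox genes, 3 were called under median-ratio scaling, quantile normalization or the same sum, 2 with the length trend removed, 1 when the block joined the removal of the length trend, and 0 to 1 with 1 sample left out. Over all tested genes, 388, 1097 and 394 were called higher in IVO under the first 3 settings. With the length trend removed 557 were, and 188 when the block was added. The neighbours called numbered 1 at a mean FPKM of at least 5, where fewer were tested, and 3 to 4 with 1 sample left out. The maternal regulators called numbered 1 when both the length trend and the block were fitted, and 2 to 4 with 1 sample left out, and the 2-cell genes 1 to 2. The cause of the other changes was not tested. The sample titles do not say whether same-numbered samples are paired. Deviations of same-numbered samples from their group means correlated at -0.062, -0.018 and -0.107. Such deviations sum to 0 within each group, so these values cannot decide whether the samples are paired. With the replicate block, 2991 genes and 0 members were called, and Obox2 kept a log2FC of 0.69 (adjusted p = 0.0713).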
